A study of Mus musculus with 2 samples.

Results

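The 1 kb tiles described here were highly methylated in Dnmt1+/+ mouse embryonic fibroblasts (MEFs) and almost free of methylation in Dnmt1-/- MEFs. CpGs were binned by chromosome and by the start position divided by 1000, and an autosomal tile was kept when it held 8 to 19 measured CpGs, a median methylation level of 80% or more in Dnmt1+/+ and a median of 10% or less in Dnmt1-/-. Of 31097 autosomal tiles with 8 to 19 measured CpGs, 19633 reached 80% in Dnmt1+/+ and 1460 of those also met the Dnmt1-/- limit. The levels of both libraries chose these tiles, so their fall is a description and carries no test.

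The study asked how the loss of DNA methylation bears on the Polycomb mark H3K27me3, and only its methylation data were used here. They came from reduced-representation bisulfite sequencing (RRBS), in which DNA is cut with restriction enzymes and bisulfite treatment separates methylated from unmethylated cytosines. Each genotype had 1 library and no replicate. Both MEF lines were homozygous null for trp53, and the line labelled Dnmt1-/- carried a hypomorphic Dnmt1 allele on both chromosomes, a form of the gene with lowered rather than absent function. The 2 lines were a gift with a derivation described elsewhere, and differences of genotype and of cell line cannot be told apart. Median depth per CpG was 29 methylation calls in Dnmt1+/+ and 30 in Dnmt1-/-.

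DNMT1 copies CpG methylation onto the new DNA strand after replication, guided by the methylated parent strand. In differentiated mouse cells most CpGs outside CpG islands are methylated, in gene bodies as well as between genes and in repeated DNA, while active promoters are usually free of it. Loss of maintenance dilutes methylation with each division, and methyltransferases that act de novo can restore it in part.

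The sequences below show how densely CpGs were measured where nearly all methylation was lost. Each is read 5′ to 3′ from the plus strand of the NCBIM37 reference, in lower case, with the measured CpGs that lie outside CCGG and TCGA in capitals. CCGG and TCGA are cut by MspI and TaqI, and CpGs within them are kept apart throughout and named enzyme-site CpGs. In the kept tiles those CpGs varied widely in Dnmt1-/-, with a median of 53.2% (quartiles 36.8 and 69.5%). Most CpGs beside them were almost unmethylated there. The remaining CpGs are named other CpGs. The first 4 windows lie in an exon, an intron, a promoter and an intergenic tile.
Midn exon, chr10:79619017-79619300: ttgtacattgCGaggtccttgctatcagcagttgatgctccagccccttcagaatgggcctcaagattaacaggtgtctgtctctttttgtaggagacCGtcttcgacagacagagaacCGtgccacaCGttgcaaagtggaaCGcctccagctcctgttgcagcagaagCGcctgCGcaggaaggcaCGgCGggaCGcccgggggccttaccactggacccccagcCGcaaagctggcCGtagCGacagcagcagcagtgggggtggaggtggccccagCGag
Cdh22 intron, chr2:165017504-165017779: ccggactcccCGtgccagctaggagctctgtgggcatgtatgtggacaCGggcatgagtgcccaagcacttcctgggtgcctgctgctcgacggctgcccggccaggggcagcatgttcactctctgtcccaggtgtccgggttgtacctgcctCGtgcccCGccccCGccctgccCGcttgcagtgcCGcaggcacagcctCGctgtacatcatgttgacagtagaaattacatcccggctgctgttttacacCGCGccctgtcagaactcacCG
Gm4875 promoter, chr6:117947116-117947279: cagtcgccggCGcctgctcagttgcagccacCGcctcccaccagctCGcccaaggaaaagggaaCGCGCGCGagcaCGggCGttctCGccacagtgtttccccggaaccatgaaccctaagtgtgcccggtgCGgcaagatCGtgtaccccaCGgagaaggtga
Intergenic tile, nearest start Chordc1, chr9:17902376-17902565: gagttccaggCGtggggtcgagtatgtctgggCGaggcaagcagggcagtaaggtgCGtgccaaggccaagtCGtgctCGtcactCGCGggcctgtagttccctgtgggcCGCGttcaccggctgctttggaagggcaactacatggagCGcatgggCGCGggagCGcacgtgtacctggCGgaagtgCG

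The 14 capital CpGs of the Midn window had a median of 95.7% in Dnmt1+/+ (lowest 88.5%, highest 100%) and of 1.39% in Dnmt1-/- (lowest 0%, highest 5%). Midn encodes midnolin, a nuclear protein that takes proteins to the proteasome. The 11 CpGs of the Cdh22 window, in a gene for a cadherin, had a median of 95.7% in Dnmt1+/+ and 2.22% in Dnmt1-/-, where the highest was 6.25%. The 13 CpGs of the Gm4875 window had medians of 93.1% and 3.39%, and the 15 CpGs near Chordc1 had medians of 93.8% and 2.56%. In each of these 4 windows the lowest CpG of Dnmt1+/+, 70% or more, stood above the highest CpG of Dnmt1-/-, 14.6% or less. The plot of single CpGs in the same 4 tiles shows the enzyme-site CpGs as a separate layer: in the Midn tile those 3 CpGs averaged 49.96% in Dnmt1-/-, and in the Cdh22 tile the 6 of them averaged 43.8%.

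**Figure D1:**
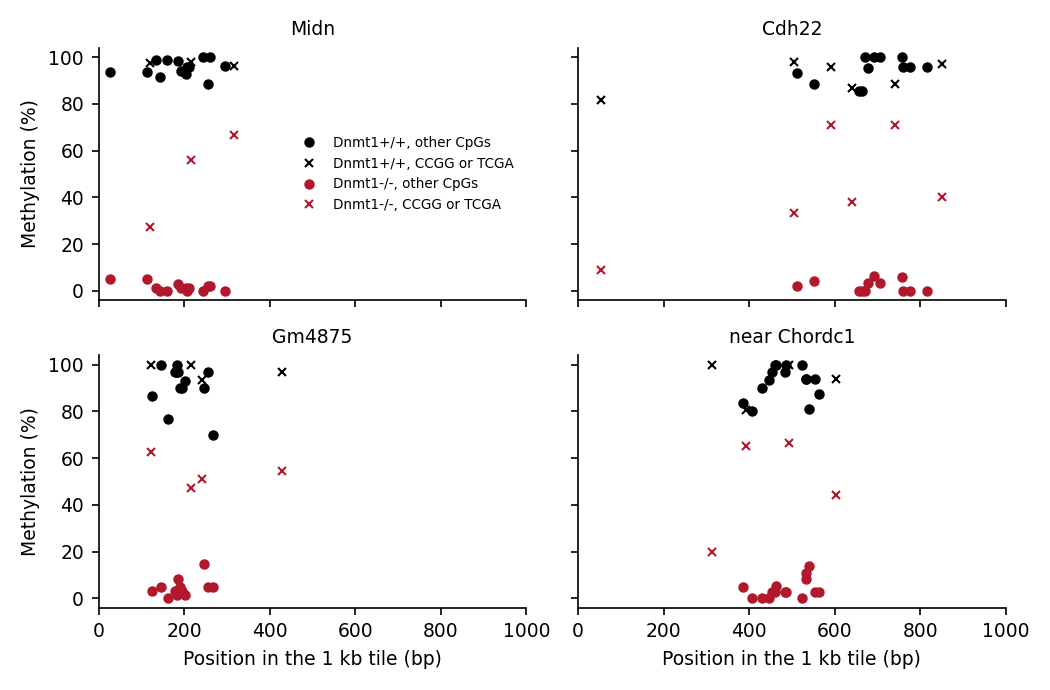
Methylation (%) of each measured CpG against its position in the 1 kb tile (bp) for 4 tiles, with Dnmt1+/+ in black, Dnmt1-/- in red, other CpGs as dots and CpGs in CCGG or TCGA as crosses. The red dots lie at 14.6% or less in all 4 tiles, while most red crosses lie between the red and the black dots.

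Another 2 intergenic windows, on different chromosomes, shared part of their sequence. They are shown because stretches of this kind recur among the tiles.
Intergenic tile, nearest start Cfhr3, chr1:141537735-141537956: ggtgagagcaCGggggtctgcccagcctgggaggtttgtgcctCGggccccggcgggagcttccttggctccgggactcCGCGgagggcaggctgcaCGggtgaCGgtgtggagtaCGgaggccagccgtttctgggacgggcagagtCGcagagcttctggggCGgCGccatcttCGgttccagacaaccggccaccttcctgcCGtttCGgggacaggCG
Intergenic tile, nearest start Rsl1, chr13:67256104-67256403: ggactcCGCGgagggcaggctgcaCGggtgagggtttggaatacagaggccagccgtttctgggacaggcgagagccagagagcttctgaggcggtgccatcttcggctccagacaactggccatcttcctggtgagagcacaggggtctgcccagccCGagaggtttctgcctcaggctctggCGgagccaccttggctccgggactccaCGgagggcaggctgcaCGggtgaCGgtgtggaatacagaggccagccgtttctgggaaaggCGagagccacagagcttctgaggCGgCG
The longest run common to both was 32 bases on the same strand. The 14 capital CpGs near Cfhr3 had a median of 87.3% in Dnmt1+/+ and 0% in Dnmt1-/-, with a highest value of 12.5%. The 11 CpGs near Rsl1 had a median of 73.3% in Dnmt1+/+ and 0% in Dnmt1-/-, with 1 CpG as high as 36.4%.

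The limits fixed the levels of the members, and the spread within them is described here. In Dnmt1+/+ the tile medians spanned 80% to 100% with a middle value of 92.4%. The Dnmt1-/- medians spanned 0% to 10% with a middle value of 5.98%. A Dnmt1-/- median of 0 was found in 141 tiles. Over the 10202 other CpGs of the members, pooled calls gave 81.5% methylation in Dnmt1+/+ (95% Wilson interval 81.4 to 81.6%, 389000 calls) and 4.82% in Dnmt1-/- (4.75 to 4.88%, 423920 calls). The 114803 other CpGs of the remaining 18173 tiles at 80% or more in Dnmt1+/+ gave 90.3% and 35.0%. Members made up 17.96% of the 1136 tiles with a Dnmt1+/+ median from 80% to under 85%, 14.7% from 85%, 10.4% from 90%, and 3.60% of the 11054 tiles at 95% or more.

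Single CpGs reached the limit of what the depth can show. No methylated call was read in Dnmt1-/- at 4365 of the 10202 other CpGs, 42.8%, which at the median depth of 27 calls of these CpGs allows up to 11.1% methylation. A level of 20% or less was read at 9850 of them, 96.5%, and a level of 50% or more at 44. Of the other CpGs of the remaining tiles, 7.61% had no methylated call in Dnmt1-/-. The 5023 enzyme-site CpGs of the members averaged 89.9% in Dnmt1+/+ and 52.8% in Dnmt1-/-. By Fisher's exact test per CpG, two-sided with Benjamini-Hochberg adjustment over the whole table, 13378 of the 15225 member CpGs were lower in Dnmt1-/-, 87.9%, where 43.7% of all 1790826 CpGs were. Among other CpGs alone it was 9947 of 10202, where 44.2% of all such CpGs were. The rule had used the same contrast, so nothing is read from these counts. A fall of 25 points or more in the tile median, which the limits fix for every member, was seen in 66.6% of the 31097 tiles.

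Grouped by the CpG and the base on either side, other CpGs averaged from 3.24% (ACGT) to 6.14% (CCGC) in Dnmt1-/- in the members, and from 28.6% (TCGT) to 42.6% (GCGC) in the remaining tiles.

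The median of all measured CpGs let some tiles in through their enzyme-site CpGs. At other CpGs alone, 1104 members, 75.6%, were at 80% or more in Dnmt1+/+, 342 lay from 50% to under 80%, 11 from 20% to under 50%, and 3 under 20%. In the intron of Pnpla6, which encodes a lysophospholipase, the 11 other CpGs of the member tile pooled to 26.4% in Dnmt1+/+ and 1.22% in Dnmt1-/-, although its median over all 17 CpGs was 82.1% in Dnmt1+/+. Pooled over other CpGs alone, both limits were met by 1060 members, 72.6%. Enzyme-site CpGs also kept tiles out. Tiles with enzyme-site CpGs at 50% or more of their measured CpGs gave 58 members of 4766, 1.22%, and the tiles with fewer gave 1402 of 14867, 9.43%. With the limits applied to the mean of all CpGs in place of their median, 6 tiles remained, and with tiles of 8 to 19 other CpGs and no enzyme-site CpGs, 909 tiles met them, of which 402 are members.

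No gap in the values separated members from the tiles next to them. The members with the highest Dnmt1-/- median, at exactly 10%, included tiles in Agap2, near Iqcf4 and near Vav2, and the nearest tiles outside the limit had medians of 10.02%, 10.03% and 10.04%. The histogram of Dnmt1-/- medians is continuous across the limit, with 379 tiles above 8% and up to 10%, and 323 tiles above 10% and up to 12%.

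**Figure D2:**
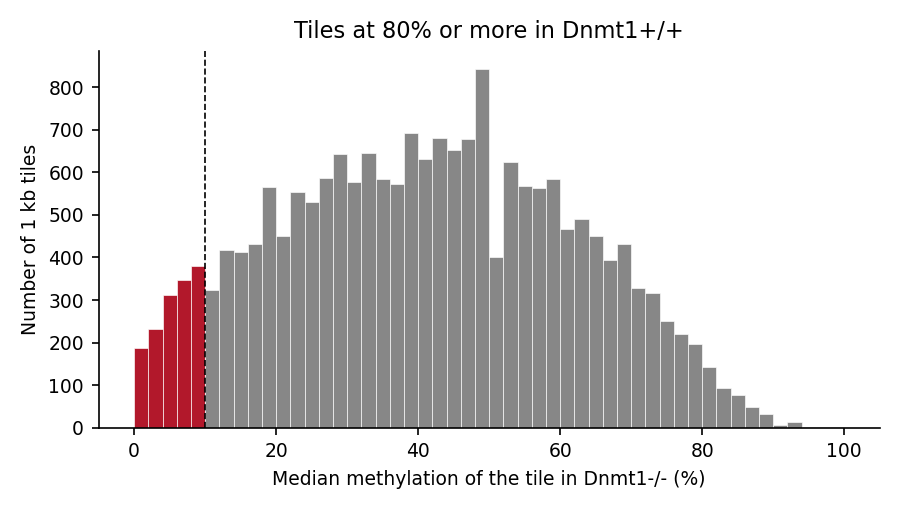
Number of 1 kb tiles against the median methylation of the tile in Dnmt1-/- (%, bins of 2 points) for the 19633 tiles at 80% or more in Dnmt1+/+. The 1460 tiles left of the dashed line at 10%, in red, form the low shoulder of 1 broad distribution.

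The members lay mostly between genes. By the GENCODE vM1 annotation, with a promoter taken as 1 kb either side of a transcription start, 772 members were intergenic (52.9%), 291 intronic (19.9%), 221 exonic (15.1%) and 176 at promoters (12.1%). Of the remaining 18173 tiles, 37.2% were intergenic, 29.3% intronic, 21.9% exonic and 11.6% at promoters. The 1797 tiles among these that retained a Dnmt1-/- median of 70% or more had 15.1% intergenic and 38.2% exonic tiles. Put the other way round, members were 10.3% of the intergenic tiles at 80% or more in Dnmt1+/+, 7.71% of the promoter tiles, 5.26% of the exonic tiles and 5.18% of the intronic tiles. These shares come from 1 library per genotype and were not tested.

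**Figure D3:**
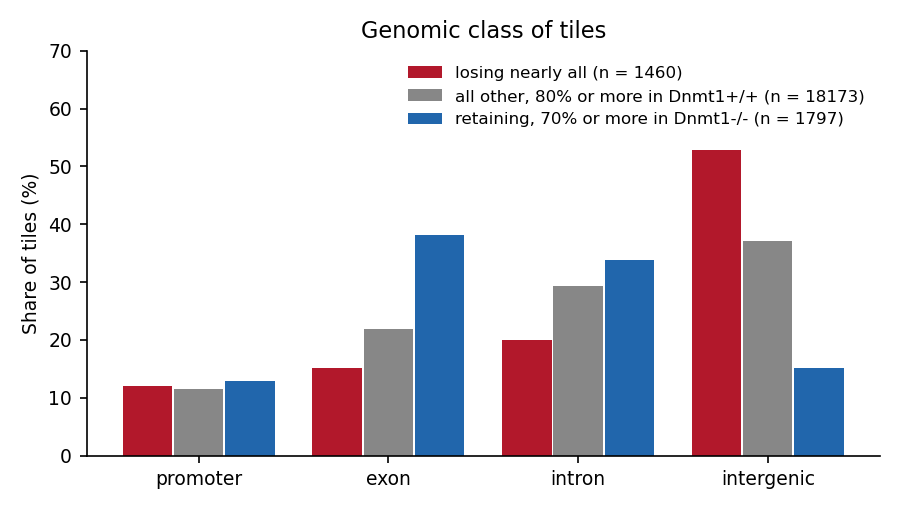
Share of tiles (%) at promoters, in exons, in introns and between genes for the 1460 members (red), the other 18173 tiles at 80% or more in Dnmt1+/+ (grey) and the 1797 of those that retained 70% or more in Dnmt1-/- (blue). The red bar is the tallest of the intergenic bars at 52.9%, and the blue bar the tallest of the exonic bars at 38.2%.

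The member CpGs in exons were mostly coding: 2039 of 2316 lay in coding sequence, 88.0%, and 8.25% in untranslated regions, where the remaining tiles had 85.3% and 10.8%. In the bodies of protein-coding genes, members sat a little nearer to the start than the retaining tiles. The median position was 58.4% of the way from start to end for 476 members, 63.6% for 9040 remaining tiles and 71.1% for 1279 retaining tiles, and the part of the gene nearest the start, up to 25% of its length, held 21.8%, 15.8% and 10.7% of them. Intergenic members lay a median of 36.3 kb from the nearest transcription start, against 31.9 kb for the remaining intergenic tiles. Every autosome held members, from 4.50% of the tiles at 80% or more on chromosome 10 (54 of 1201) to 10.5% on chromosome 7 (103 of 980).

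Base composition of the members was like that of the remaining tiles. The median tile had 22 CpGs per kb in both sets, a GC content of 49.4% against 50%, and a ratio of observed to expected CpGs of 0.36 in both. Median depth per CpG was also alike, at 31.4 and 31.2 calls in Dnmt1+/+ and 33.2 and 33.2 in Dnmt1-/-. The copy number of the sequence was not. Tiles in which at least 50% of the 25-base words occur 10 times or more in the genome were 292 of the 1460 members, 20%, against 12.8% of the remaining tiles and 3.51% of the retaining tiles. Among intergenic tiles this share was 31.0% in the members and 26.5% in the remaining tiles, and among exonic tiles it was 0.452% and 0.301%. Among promoter tiles it was 7.95% and 1.80%, and among intronic tiles 13.1% and 9.26%. With such tiles left out, members were still 9.69% of the intergenic tiles and 5.25% of the exonic tiles. The intergenic share of the members then became 45.6%. The 37.2% of the remaining tiles includes repeated tiles and is not its counterpart. How reads were assigned between copies of a repeat was not tested.

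Tiles that resembled each other in sequence could be grouped without use of their Dnmt1-/- values. Within the 19633 highly methylated tiles of Dnmt1+/+, 31 families of at least 20 tiles were formed, in which each tile had 50 or more 25-base words in common with a central tile. They took in 4171 tiles and are named by letters in order of size. The families held 382 members, 9.16% of their tiles, and the 15462 tiles outside them held 1078, 6.97%. The member with the most words in common with the central tile gives the window shown for family D, which had the largest share of members among families of 100 tiles or more, and for family B, which had the smallest.
Family D, chr6:79918617-79918726: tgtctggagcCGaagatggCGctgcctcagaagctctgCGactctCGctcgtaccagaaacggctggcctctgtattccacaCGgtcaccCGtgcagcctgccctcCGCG
Family B, chr11:96017631-96017689: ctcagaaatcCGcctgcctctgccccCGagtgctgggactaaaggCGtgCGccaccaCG
In family D, 87 of 318 tiles were members, 27.4%, and the median tile was at 89.4% in Dnmt1+/+ and 16.6% in Dnmt1-/- over its other CpGs. In family B, 16 of 688 tiles were members, 2.33%, with medians of 89.1% and 30.8%. Family A, the largest with 1206 tiles, had 124 members, 10.3%, and Dnmt1-/- levels from 10.9% to 24.2% between its quartiles. Family D was 82.4% intergenic and family B 43.0%, and the median Dnmt1-/- level over the surrounding 50 kb at highly methylated CpGs, where it could be taken, was 18.7% (29 tiles) for family D and 35.4% (514 tiles) for family B. The window near Rsl1, in a tile of family A, had 30 bases in common with the family D window on the opposite strand, and the window near Cfhr3 had 26. The levels are those of whole tiles, shared and unshared sequence together, and no family was made up of members alone. In family D, beside its 87 members, 5 tiles retained 70% or more.

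**Figure D4:**
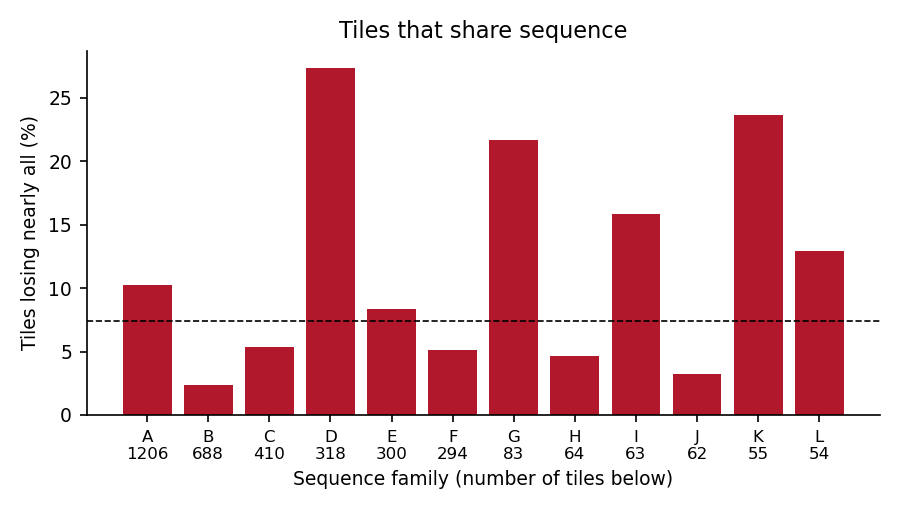
Percentage of tiles that are members in each of the 12 sequence families with at least 50 tiles, with the number of tiles under each letter. The dashed line marks the 7.44% over all 19633 tiles, and the bars run from 2.33% in family B to 27.4% in family D.

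Low Dnmt1-/- methylation was also read in many tiles near the members. Neighbouring tiles 1 to 10 kb away with at least 3 other CpGs come from the same 2 libraries, and some are members themselves, 42 of 385 at 1 kb. At 1 kb, 385 neighbours of members had a median of 83.6% in Dnmt1+/+ and 4.24% in Dnmt1-/- (quartiles 1.20 and 12.9%), and 5050 neighbours of the remaining tiles had medians of 92.9% and 32.2% (quartiles 14.3 and 52.1%). Of the members' neighbours, 22.9% were already under 20% in Dnmt1+/+, against 6.93% for the remaining tiles. The comparison was therefore also made among neighbours at 80% or more in Dnmt1+/+. There, 109 of 210 neighbours of members were at 10% or less in Dnmt1-/-, 51.9%, and 369 of 3920 neighbours of the remaining tiles, 9.41%. Neighbours of retaining tiles gave 10 of 607, 1.65%. At 10 kb the shares were 31.4% (44 of 140), 12.6% (229 of 1821) and 5.38% (12 of 223). Neighbours with under 8 or over 19 measured CpGs could not be chosen by the rule. Among those at 80% or more in Dnmt1+/+, 58 of 117 at 1 kb from members, 49.6%, were at 10% or less in Dnmt1-/-, and 241 of 2086 at 1 kb from the remaining tiles, 11.6%. A separate setting left out repeated tiles but again took all neighbours at 80% or more in Dnmt1+/+, including those the rule could choose. Its 1 kb shares were 55.5% for members and 8.81% for the remaining tiles. When enzyme-site CpGs were counted as well, they also counted towards the 3 CpGs that a neighbour needed. More neighbours then qualified at 1 kb, 684 of members and 9174 of the remaining tiles. Their Dnmt1-/- medians were 29.9% for members and 46.2% for the remaining tiles.

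**Figure D5:**
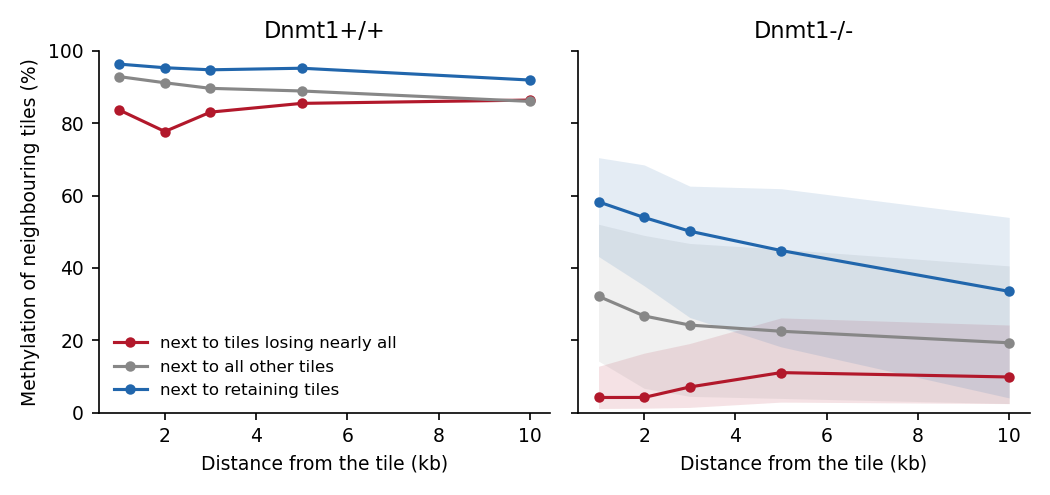
Median methylation (%) of tiles 1 to 10 kb from members (red), from the other tiles at 80% or more in Dnmt1+/+ (grey) and from the retaining tiles among those (blue), in Dnmt1+/+ on the left and Dnmt1-/- on the right, where the bands span the quartiles. Neighbours that are members themselves are included, and on the right the red line starts at 4.24% and the grey at 32.2%, and at 10 kb they are at 9.90% and 19.3%.

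The surroundings of a tile were taken as 50 kb on either side, without the tile and those next to it, and described by the mean Dnmt1-/- level of the CpGs that lay outside CCGG and TCGA and reached 80% in Dnmt1+/+. Where at least 20 such CpGs were measured, the median of this mean was 23.9% for 742 members, 35.8% for 11159 remaining tiles and 44.3% for 1377 retaining tiles. Members occurred in very different surroundings. Surroundings at 10% or less were found for 76 of the 742 members, 10.2%, and for 1.78% of the remaining tiles, while surroundings at 40% or more were found for 103 members, 13.9%, and for 37.0% of the remaining tiles. These surroundings can take in other members. Taken only from tiles with under 8 or over 19 CpGs, they had a median of 24.4% for 547 members and 35.2% for 8639 remaining tiles. On that basis the 3 members of Cdh22 had surroundings of 1.71 to 7.06%. The Midn tile shown above, at 1.26% over its 796 calls at other CpGs, stood in surroundings of 41.9%. Over all tiles, the highest surroundings of a member, 60.7%, were those of an intronic tile at 3.64% (2 of 55 calls) that the annotation places in both Fgfr2, a fibroblast growth factor receptor, and Tacc2.

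Few members stood in runs. With members no more than 5 kb apart joined, 1389 stood alone, 32 runs had 2, 1 run had 3 and 1 had 4. Runs of the remaining tiles were not counted. Of the 385 neighbours of members at 1 kb with at least 3 other CpGs, 226 could not be chosen by the rule. The run of 4 covered chr9:3023001-3030000, next to the start of the assembled chromosome, and lay in Gm16869, Gm10718 and Gm10717. The run of 3 covered chr17:34049001-34056000, from Daxx, which encodes a histone chaperone, to Zbtb22 and Tapbp. Tapbp encodes tapasin, which loads peptides on class I histocompatibility molecules. Their 3 tiles were at 2.68%, 7.99% and 2.64% in Dnmt1-/- at other CpGs, and at 81.8%, 95.1% and 79.9% in Dnmt1+/+. Of the runs of 2, the one with the most other CpGs held 2 tiles of Midn, at chr10:79616001-79620000, with 2.99% and 1.26% in Dnmt1-/-.

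The run on chromosome 9 lay in repeated sequence, parts of which were read deeply. A window of it is shown because single CpGs in it behaved unlike their neighbours.
Gm10717 promoter, chr9:3025269-3025568: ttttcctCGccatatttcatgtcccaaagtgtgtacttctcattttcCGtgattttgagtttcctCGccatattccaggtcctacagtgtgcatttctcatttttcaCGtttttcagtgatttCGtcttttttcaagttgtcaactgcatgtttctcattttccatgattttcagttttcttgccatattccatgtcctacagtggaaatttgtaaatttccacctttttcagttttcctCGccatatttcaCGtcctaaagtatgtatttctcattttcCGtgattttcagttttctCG
The 9 capital CpGs were read 105 to 902 times in Dnmt1+/+ and 89 to 936 times in Dnmt1-/-, and 70.3% of the 25-base words of the tile occur 10 times or more in the genome. Their median was 97.1% in Dnmt1+/+ and 7.39% in Dnmt1-/-, but the highest in Dnmt1-/- was 98.0%. Pooled over all 15 other CpGs, the tile was at 93.4% in Dnmt1+/+ and 23.7% in Dnmt1-/-. Of the 6 members in Gm16869, pooled Dnmt1-/- levels ran from 5.29 to 34.3%, the last being the highest of all members. The fall was uneven there, with a low median beside CpGs that kept their methylation.

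Genes held 676 of the members and 784 lay in none. In all, 628 genes held a member, 8.90% of the 7057 genes with a tile at 80% or more in Dnmt1+/+, and 541 of them were protein-coding. A single member was found in 568 genes, 2 in 40 and 3 or more in 20. Both a member and a retaining tile were found in 38 genes, which is 6.05% of the 628 genes with a member and 3.15% of the 1207 genes with a retaining tile. Retaining tiles were found in 17.1% of the 7057 genes, and 305 of the genes with a member had a single tile at 80% or more in Dnmt1+/+ and so could not hold both.

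Genes with 3 or more members are given here, ordered by what they encode. How common each kind is among all genes with a tile at 80% or more in Dnmt1+/+ was not counted. No functional theme is therefore read from them. Pcdha11, an alpha protocadherin whose annotated span takes in other genes of its cluster, held 6 members among its 7 tiles at 80% or more in Dnmt1+/+. Pooled over other CpGs, they were at 74.3 to 96.8% in Dnmt1+/+ and at 5 to 12.4% in Dnmt1-/-. Cacna2d2, an auxiliary subunit of voltage-gated calcium channels, held 4 of 5, with 78.5 to 93.3% in Dnmt1+/+ and 0 to 1.57% in Dnmt1-/-. In 2 of these 4 tiles there was no methylated call at other CpGs in Dnmt1-/-, among 135 and 168 calls. In Scn8a, a voltage-gated sodium channel, 4 of 5 tiles were members, at 82.8 to 97.1% in Dnmt1+/+ and 3.66 to 5.45% in Dnmt1-/-.

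The cadherin genes Cdh22 and Cdh4 held 3 of 4 and 4 of 8. The Cdh22 members were at 2.64 to 3% in Dnmt1-/- and at 66.6 to 93.6% in Dnmt1+/+. The Cdh4 members were at 0 to 4.55% and at 74.8 to 90.7%. Unc5a, a receptor for the guidance cue netrin, held 4 of 9, at 2.61 to 4.33% in Dnmt1-/- and 85.6 to 93.5% in Dnmt1+/+. None of these 11 tiles reached 5% in Dnmt1-/-, and 997 of the 1460 members, 68.3%, were at 5% or less at other CpGs.

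Hydin and Dnahc10, components of motile cilia, held 3 of 8 and 3 of 10, at 1.51 to 4.44% and 3.57 to 7.41% in Dnmt1-/-. Mpped1 held 3 of 4 at 0.896 to 2.86%, and Mtus2, which encodes a microtubule-associated protein, 3 of 12 at 1.15 to 5.14%. The noncoding Gm15966 held 3 of 3 at 2.87 to 6.10%.

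Large counts also came from long gene models. Gm20388 held 10 members, but these were 10 of 190 tiles at 80% or more in Dnmt1+/+ in a model that spans many genes of chromosome 8, among them Gse1, Jph3, Fam38a and Cbfa2t3, and 27 of its tiles were retaining. Gm16736 held 3 of 28. Of genes with at least 3 tiles at 80% or more in Dnmt1+/+, 1050 of 1252 held no member, and 3 had members alone: Gm15966, Myh3 and Tapbp. Myh3, an embryonic form of muscle myosin, is named here after its values were seen, and its tiles were at 4.44 to 8.54% in Dnmt1-/-, although 1 of them was at 45.4% in Dnmt1+/+ at other CpGs.

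At promoters, the members with the most other CpGs were those of Gm1564, Gm10717, Pik3r5, Srcrb4d and Gm4875. The Gm4875 tile, 51 bp from the start, was at 91.0% in Dnmt1+/+ and 4.35% in Dnmt1-/- (31 of 712 calls). The Pik3r5 tile, in a regulatory subunit gene of phosphoinositide 3-kinase, was at 74.6% and 7.73%, and the Srcrb4d tile at 76.1% and 6.62%. The Gm1564 tile was at 76.3% and 12.6%, and 1 of its 16 other CpGs was at 66.7% in Dnmt1-/-.

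The exonic members with the most other CpGs lay in Midn, Rtn1, Ces4a, 2510012J08Rik and Qprt. Qprt, an enzyme of NAD synthesis, was at 86.8% in Dnmt1+/+ and 4.37% in Dnmt1-/-, and 2510012J08Rik at 96.9% and 5.58%. Rtn1, a reticulon of the endoplasmic reticulum, was at 76.7% and 9.16% with 1 CpG at 57.7% in Dnmt1-/-, and Ces4a, a carboxylesterase gene, was at 78.1% and 6.74%. In introns they lay in Cdh22, Dnahc17, Pnpla6, Atcay and Chst8, where Dnahc17, a dynein heavy chain of cilia, was at 82.7% and 7.22%. Atcay was at 69.3% and 2.87%, and Chst8, a sulfotransferase gene, at 82.8% and 14.3%. The intergenic tiles near Gm15626 and Sept5 were at 94.0% and 91.9% in Dnmt1+/+, and at 5.96% and 6.39% in Dnmt1-/-.

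No methylated call at other CpGs was read in Dnmt1-/- in 63 members, some of them with few calls. Among the 100 members with the most Dnmt1-/- calls at other CpGs, the lowest was an intergenic tile near Gm12826 with 1 methylated call of 573, 0.175% (95% Wilson interval 0.0308 to 0.982%), against 79.2% in Dnmt1+/+. A tile at Prrc2a had 4 of 698 calls, 0.573%, against 93.0%. A tile in an intron of Plekha2 had 8 of 777, 1.03%, against 87.2%. Intergenic tiles near Mirlet7c-2 and near a U6 gene had 5 of 633 and 5 of 574 calls. The Plekha2 tile had surroundings of 44.3%, the Prrc2a tile of 13.6%.

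Of 7 lists of genes of known function, each had genes with members. Among germline genes with a tile at 80% or more in Dnmt1+/+, 4 of 20 held a member. They were Mei1 and Spo11, needed for the DNA breaks of meiosis, Mov10l1, a helicase of the piRNA pathway, and Tex101, a germ cell surface protein, and their tiles were at 86.1 to 96.7% in Dnmt1+/+ and 3.64 to 5.41% in Dnmt1-/-. Only the Tex101 tile was at a promoter, and 89.96% of the words in the Mov10l1 tile were repeated. A list of 31 protocadherin genes and their relatives, which did not hold Pcdha11 and other genes of these clusters, gave 4 of 14: Celsr1, Celsr3, Pcdhb18 and Pcdhb20, with Dnmt1-/- levels of 4.46%, 2.35%, 2.66% and 5.02%. Imprinted genes gave 1 of 8, the promoter of Mkrn3, at 61.2% in Dnmt1+/+ and 1.37% in Dnmt1-/-. The median of its 9 other CpGs in Dnmt1+/+ was 27.3%, against 81.8% over all 13 CpGs, so it passed that limit only with its enzyme-site CpGs.

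Developmental regulators gave 1 of 10, Prdm16, with 2 members. At other CpGs 1 of these tiles was at 93.0% in Dnmt1+/+ and 0.893% in Dnmt1-/-, and the other at 44.5% and 4.64%, so that it passed the Dnmt1+/+ limit only with its enzyme-site CpGs. Signalling genes gave 3 of 35. They were Fgfr2, through the tile it shares with Tacc2, and the ligand genes Wnt5b, with 0 of 176 methylated calls at other CpGs in Dnmt1-/- (up to 1.70% by the limit of 3 calls) against 70.2% in Dnmt1+/+, and Wnt7a, at 5.86% against 95.8%. Chromatin regulators gave 1 of 33, the Polycomb gene Phc2 at 13.1% against 93.5%. Extracellular matrix genes gave 1 of 27, the collagen gene Col23a1 at 5.21% against 83.7%. The lists are small, and their shares of genes stand beside 8.90% over all genes. Shares of genes also depend on how many tiles each gene held. Counted by tiles at 80% or more in Dnmt1+/+, members were 10.5% for germline genes, 9.52% for developmental regulators and 7.55% for protocadherin genes. They were 5.56% for imprinted genes, 2.97% for signalling genes, 1.19% for chromatin regulators and 1.04% for extracellular matrix genes. The share over all such tiles was 7.44%.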

How the data were processed

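The deposited table gave, for each CpG measured in both libraries, its depth as a count of methylation calls and the methylated calls as a percent of that count. A sequencing provider did the quality control and mapping for the authors. Per the labels, Bismark and the mm9 build (NCBIM37) were used, and the Bismark version is not given in the sources used here. The authors kept CpGs with at least 10 calls in both libraries. Percent times depth returned whole methylated calls.

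Starts in the table count from 0, and coordinates are printed 1-based on NCBIM37. Tile medians were rounded to 9 decimals before the limits were applied. Genomic class was that of most CpGs of a tile, by GENCODE vM1, with promoters before exons and introns. Copy number came from 25-base words of NCBIM37, since the reference used here marks no repeats. Intervals are 95% Wilson intervals, and they and the limit of 3 calls at a count of 0 cover counting error only, because PCR reads are not independent molecules. Fisher's exact test compares 2 libraries, not genotypes. On 50000 simulated CpGs it called 99.74% of those changed from 90% to 5% and 0.118% of the unchanged ones.

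Members and gene lists were chosen with earlier results of these data known. Named tiles were, in each class, the 5 with the most other CpGs, then genes with 3 or more members (at most 15), the 3 longest runs, the tiles nearest the limit, listed genes with a member, and the 5 lowest in Dnmt1-/- among the 100 members with the most calls. The result for 1 gene that the rule names is left out of the text. Printed windows are the densest in CpGs, at most 300 bases. The 2 family windows were added after the values were seen. Tool versions were: matplotlib 3.10.9 for figures, pysam 0.24.0 for sequence, and for the values numba 0.67.0, pandas 2.3.3, numpy 2.4.6 and scipy 1.17.1 under python 3.11.15.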

Additional observations from a re-analysis of the deposited data

Results flagged for a closer look

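Chromosome X was outside the rule. Within the same limits it held 32 tiles of 437 at 80% or more in Dnmt1+/+, 7.32%, and the autosomes 7.44%. The other CpGs of those 32 tiles pooled to 84.4% in Dnmt1+/+ and 4.62% in Dnmt1-/-. They are given because they lie in data that the comparisons do not use.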

How the results depend on the processing

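Membership depended strongly on how CpGs were counted. The 1460 tiles became 909 when only CpGs outside CCGG and TCGA were used (402 of them members), 3823 with enzyme-site CpGs rescaled (1318 members), 713 at a depth of at least 20 (624 members), 6 with the mean and 7 with pooled calls in place of the median, 582 and 3610 with Dnmt1-/- limits of 5% and 20%, and 745 with 10 to 19 CpGs per tile. Shifting tiles by 500 bp gave 1458. Pooled Dnmt1+/+ and Dnmt1-/- levels at other CpGs were 80.8% and 4.91% at a depth of at least 20, 84.9% and 4.57% with each CpG counted once, and 84.9% and 4.49% without CpGs above the 99th percentile of depth. The promoter share was 7.60% and the exonic share 17.8% with 500 bp promoters, and with protein-coding genes alone 9.45% were at promoters and 57.5% intergenic. Members chosen at CpGs outside CCGG and TCGA were 16.5% intronic and 52.9% intergenic. Without repeated tiles, a setting chosen after the data were seen, 13.9% were at promoters, 18.8% exonic and 45.6% intergenic. The Dnmt1-/- median of tiles 1 kb from members and from the remaining tiles was 29.9% and 46.2% with all CpGs, 2.82% and 34.0% with at least 5 CpGs, 3.75% and 33.6% without repeated tiles, and, added later, 3.54% and 29.8% among neighbours with under 8 or over 19 CpGs. The causes of these shifts were not tested beyond what each setting leaves out or, with all CpGs counted at 1 kb, lets in. No paired analysis was possible because there was 1 library per genotype and no shared replicate number beyond it.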
